A study of Mus musculus with 32 samples.

Results

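RNA was sequenced from whole embryonic mouse kidneys at E18.5 in which the mutant ENL T1 had been switched on in the renal stroma, and from matched controls. Of the 32 samples of the study, 6 belong to this comparison: 3 libraries of Foxd1GC/+;EnlT1/+ kidneys (T1 kidneys) and 3 of Foxd1GC/+;Enl+/+ kidneys (WT kidneys), which were picked by their titles. ENL is the protein of the Mllt1 gene, a reader of acetylated histones that recruits elongation complexes to chromatin, and T1 is a small insertion in its YEATS domain found in Wilms tumor. The allele is conditional and heterozygous, so the mutant is made from the gene's own promoter after Cre has acted. The Foxd1GC knock-in places a GFP-Cre fusion in one copy of Foxd1 and inactivates that copy, and both genotypes carry it. Cre therefore acts in Foxd1-positive stromal progenitors and their descendants, whereas the RNA came from the whole organ. No cells were selected, so fewer cells of a type and less RNA per cell cannot be told apart in any value below. The labels do not say whether kidneys were pooled or whether each library came from its own embryo, so the p values measure the spread between these libraries only.

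The Foxd1 lineage gives rise to cortical and medullary interstitium, mesangium, pericytes, vascular smooth muscle and the renin cells of the arterioles. Nephrons come from a separate pool of Six2-positive progenitors that cap the ureteric tips, and collecting ducts come from the ureteric tree. Stroma signals to both neighbours, so the whole organ reports on cells that carry the mutant together with cells that do not.

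The 6 libraries held between 67137194 and 79343015 counts, and Pearson correlations of log CPM (a gene's counts scaled to library size) within a genotype lay between 0.99 and 0.993. Mllt1 was measured at 122, 125 and 119 CPM in the WT and 104, 98.5 and 101 CPM in the T1 libraries, a log2 fold change of -0.27, SE 0.05, adjusted p = 0.00102 by the quasi-likelihood test of edgeR, Benjamini-Hochberg adjusted across the tested genes, which is the source of every adjusted p given here. Counts per gene do not separate the mutant from the normal transcript, so this value does not check the labels. Foxd1 itself was read at 31.1, 34.4 and 31 CPM in WT and 51, 39.7 and 43.3 CPM in T1 kidneys (log2 fold change 0.47, SE 0.08), below the threshold fold of 1.5. All 6 libraries had Xist and 0 counts of the 4 Y-linked genes examined (Ddx3y, Eif2s3y, Kdm5d and Uty), so sex did not vary between the genotypes.

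The makeup of the libraries moved with genotype, and its part in the results was not tested. Mitochondrial genes took 2.89% to 3.39% of counts in WT and 1.18% to 1.55% in T1 libraries, and 13 of the 16 tested were called lower. Genes annotated as lincRNA, antisense, processed transcript or TEC (unconfirmed transcripts) together took 0.905% to 1.02% of counts in WT and 0.786% to 0.803% in T1 libraries. At least 1 count was seen for 27638 to 28103 genes per WT library and for 26188 to 26505 per T1 library. Malat1, a nuclear long noncoding RNA, stood at 503, 395 and 463 CPM in WT and 223, 233 and 226 CPM in T1 kidneys. The groups did not overlap in any of these measures.

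**Figure D1:**
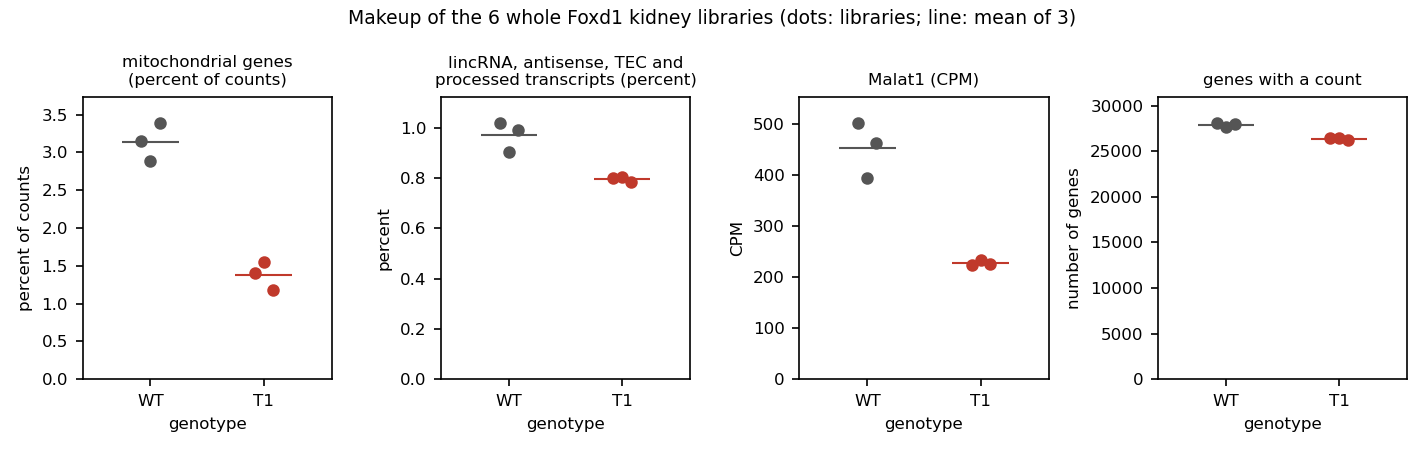
Makeup of the 6 libraries by genotype: percent of counts on mitochondrial genes, percent on 4 noncoding classes, Malat1 in CPM, and the number of genes with a count. Dots are libraries and lines are means of 3, all axes start at 0, and every T1 library lies below every WT library in each panel.

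Of 20145 genes tested, 534 were called higher (2.65%) and 1517 lower (7.53%) in T1 kidneys at an adjusted p under 0.05 and a fold over 1.5. Among the protein-coding genes of that fit, 451 were higher and 928 lower. The split moved with transcript class: 22.8% of 558 TEC genes, 20.2% of 352 processed transcripts, 18.4% of 797 lincRNAs and 17.6% of 784 antisense genes were called lower, against 5.84% of 15714 protein-coding genes of the nuclear genome, whose median log2 fold change was 0.02. When protein-coding genes were fitted alone, 418 were higher and 983 lower. The libraries of the genotypes did not overlap for 2004 of the 2051 called genes, a property shared by 46.5% of all tested genes. The following paragraphs take the called genes by the cells and pathways they mark. Each count of list members called in this comparison is to be read beside the shares of all tested genes, 2.65% higher and 7.53% lower.

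Ren1 was among the 15 named genes that fell most. Ren1, the aspartyl protease that starts the renin-angiotensin cascade and the product of a Foxd1-lineage cell (chromosome 1, 133350510 to 133360325, plus strand, GRCm38), was measured at 560.4, 712 and 467 CPM in WT and 23.9, 38.3 and 27.8 CPM in T1 kidneys. Every T1 library was far under the lowest WT library, a 19.3-fold fall (log2 fold change -4.27, SE 0.17, adjusted p = 3.39e-09). Akr1b7, an aldo-keto reductase made by renin cells, followed with 9.17, 9.78 and 8.61 CPM against 1.5, 1.91 and 1.41 CPM (log2 fold change -2.51, SE 0.14, adjusted p = 5.19e-08), again without overlap. Exons of other genes cover 27.2% of its exon length, so part of its count is uncertain. The angiotensin receptor gene Agtr2, which also marks embryonic stroma, went from 51.9, 55.1 and 50.2 CPM to 30.3, 26.6 and 28.3 CPM and was lower in all 3 T1 libraries (log2 fold change -0.88, SE 0.06). In all, 4 of the 10 tested members of the renin-angiotensin list were called lower and 0 higher, with a median log2 fold change of -0.42 against -0.0034 for all tested genes.

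The promoters of 4 genes are shown here because they belong to the changes the comparison turns on: the renin-cell pair Ren1 and Akr1b7, the proximal tubule gene Kap, and Hoxd12, the most changed Hox gene. Each window runs from 250 bases before to 50 bases after the RefSeq start on GRCm38.p6, 5′ to 3′ on the gene's strand. Capitals mark matches, on either strand, to a PBX-HOX motif (TGATTNAT), a TATA box (TATAAA) and a CCAAT box (CCAAT), which do not overlap in these windows.
Ren1 (chr1:133350424-133350723, plus strand): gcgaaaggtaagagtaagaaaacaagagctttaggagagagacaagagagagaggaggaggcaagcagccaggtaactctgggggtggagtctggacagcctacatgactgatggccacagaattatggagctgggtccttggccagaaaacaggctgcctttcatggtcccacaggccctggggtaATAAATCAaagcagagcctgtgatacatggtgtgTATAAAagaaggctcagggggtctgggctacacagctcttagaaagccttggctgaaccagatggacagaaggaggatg
Akr1b7 (chr6:34412112-34412411, plus strand): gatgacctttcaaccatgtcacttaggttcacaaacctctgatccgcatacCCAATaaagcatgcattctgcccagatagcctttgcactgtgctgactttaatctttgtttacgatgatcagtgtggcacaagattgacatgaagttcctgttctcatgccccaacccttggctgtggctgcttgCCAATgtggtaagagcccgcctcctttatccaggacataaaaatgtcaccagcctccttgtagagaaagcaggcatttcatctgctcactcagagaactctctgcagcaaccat
Kap (chr6:133853618-133853917, minus strand): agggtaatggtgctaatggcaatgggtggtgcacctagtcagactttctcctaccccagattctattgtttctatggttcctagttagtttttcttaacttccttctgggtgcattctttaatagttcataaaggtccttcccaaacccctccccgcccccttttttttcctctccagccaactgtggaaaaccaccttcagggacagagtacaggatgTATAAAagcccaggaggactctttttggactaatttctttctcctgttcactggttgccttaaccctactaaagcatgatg
Hoxd12 (chr2:74674763-74675062, plus strand): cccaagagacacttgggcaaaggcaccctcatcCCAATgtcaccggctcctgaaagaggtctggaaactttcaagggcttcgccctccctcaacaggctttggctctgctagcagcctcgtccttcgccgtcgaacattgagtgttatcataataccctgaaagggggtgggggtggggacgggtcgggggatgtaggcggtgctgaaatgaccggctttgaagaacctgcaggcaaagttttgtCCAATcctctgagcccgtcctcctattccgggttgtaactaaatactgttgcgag
The Ren1 window holds the PBX-HOX letters on the opposite strand, at -63 to -56 from the start, and a TATA box at -29 to -24. Kap holds a TATA box at -31 to -26, and Akr1b7 and Hoxd12 hold 2 CCAAT boxes each. A PBX-HOX match was found in 3.22% of 32851 promoter windows of 27025 genes, in 1.76% of the windows of tested genes, in 3.9% of 436 windows of genes called higher and in 3.75% of 1093 windows of genes called lower. The TATA letters were in 8.02% of windows of tested genes, 11.7% of those called higher and 12.9% of those called lower, and the CCAAT letters in 37%, 37.2% and 36.6%. A match describes the letters of a window and not a bound site.

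Of 19 genes of the mesangium, pericytes and smooth muscle, 4 were called lower, 0 higher and 15 neither. Myh11, the smooth muscle myosin heavy chain, was at 86.2, 94 and 81.3 CPM in WT and 45.5, 36.8 and 47.3 CPM in T1 kidneys (log2 fold change -1.01, SE 0.09, adjusted p = 1.55e-06). Acta2, smooth muscle actin, was at 380, 473 and 414 CPM and 271, 267 and 298 CPM, also without overlap, and its fold sat close to the threshold (log2 fold change -0.60, SE 0.07), which it missed when WT replicate 2, T1 replicate 1 or T1 replicate 2 was left out. Calponin (Cnn1) and the nitric oxide receptor subunit Gucy1a1 completed the 4, with log2 fold changes of -1.13 and -0.67 (list median -0.29). The contractile genes Mylk and Lmod1 were not called (log2 fold changes -0.33 and -0.29), nor was the receptor gene Pdgfrb (-0.25, SE 0.07), and Des and Ednra, also not called, stood at 0.37 and 0.32.

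Of 22 stromal identity genes, 2 were called higher, 3 lower and 17 neither, and the list median was 0.10. The homeobox gene Meis2 went from 195, 183 and 198 CPM to 304, 301 and 289 CPM (log2 fold change 0.63, SE 0.05, adjusted p = 1.19e-06) and the matrix regulator Smoc2 from 70.4, 87.4 and 86.5 CPM to 126, 123 and 129.6 CPM (log2 fold change 0.63, SE 0.07, adjusted p = 2.89e-05), which was not called once WT replicate 1 was left out. Ntn1, a guidance ligand of cortical stroma, went the other way, from 146, 161 and 167 CPM to 85.4, 88.7 and 85.3 CPM (log2 fold change -0.87, SE 0.06, adjusted p = 2.23e-07), as did Fibin and, as given above, Agtr2. Fibin stood close to the threshold, with 25.2, 24.4 and 25.4 CPM against 16.4, 15.7 and 17.6 CPM, and missed it without WT replicate 3, T1 replicate 1 or T1 replicate 2. The transcription factor genes Tcf21 and Meis1 and the peptide gene Penk, all stromal, had log2 fold changes of -0.41, 0.18 and 0.38 and were not called. The summed level of the whole stromal list was 3087 to 3262 CPM in WT and 3179 to 3290 CPM in T1 libraries, with overlapping ranges.

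Matrix genes were mostly within the fold threshold. Of 28, Fn1, Lum and Vcan were called higher and 0 lower, with a list median of 0.09. Fibronectin (Fn1), also counted among the stromal ligands, was at 656, 702 and 642 CPM in WT and 1026, 1023 and 1150 CPM in T1 kidneys (log2 fold change 0.68, SE 0.06, adjusted p = 3.15e-06). Lumican (Lum), a small proteoglycan, was at 30.1, 37.3 and 29.4 CPM and 62.5, 62.1 and 58.7 CPM, and versican (Vcan) at 225, 179 and 216 CPM and 357, 309.6 and 329 CPM, none of them overlapping between genotypes. Among 11 stromal ligands and receptors, Fn1 was called higher and Ntn1 lower, and the integrin gene Itga8 stood at a log2 fold change of -0.04, SE 0.05. Without WT replicate 1, or without T1 replicate 1, 2 matrix genes were called lower.

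**Figure D2:**
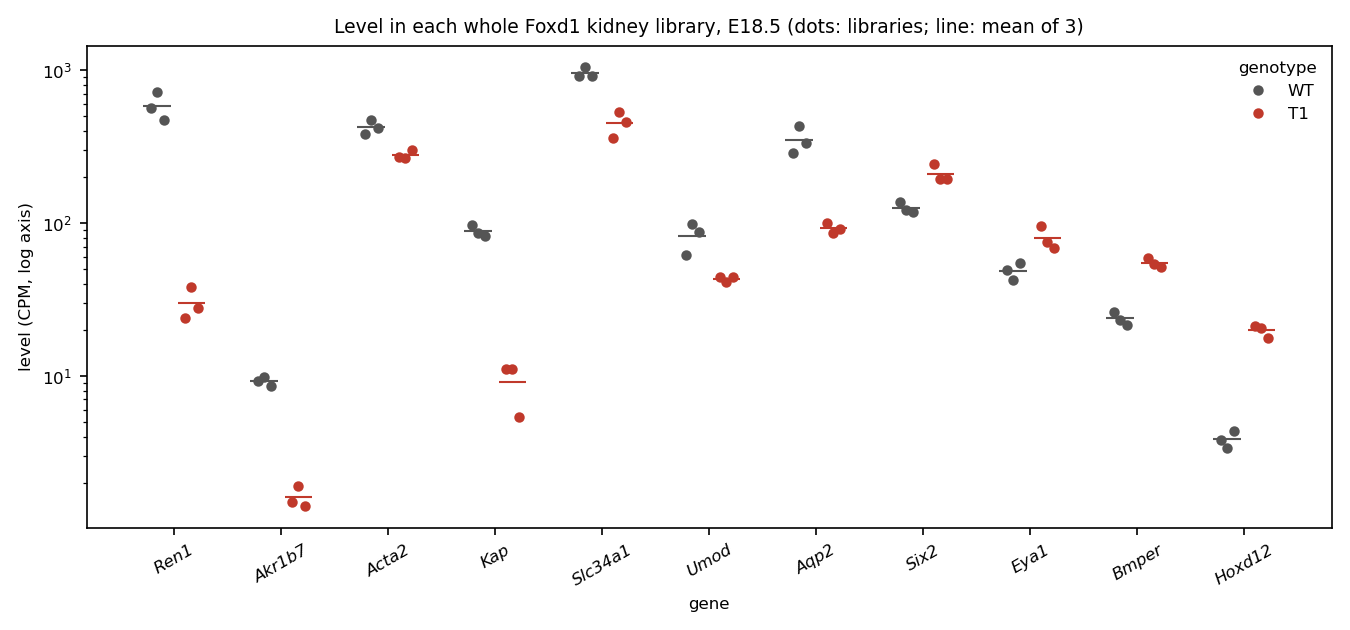
Level of 11 genes in each library, in CPM on a log axis, with dots for libraries and lines for the mean of 3. Ren1 lay at 560.4, 712 and 467 CPM in WT and 23.9, 38.3 and 27.8 CPM in T1 libraries, and for every gene drawn the T1 libraries lie on one side of the WT libraries.

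Hox genes, which encode the homeodomain factors of positional identity, did not move as one group. Of 34 tested, Hoxa3, Hoxa5, Hoxa6, Hoxa11, Hoxc11, Hoxd12 and Hoxd13 were called higher, Hoxd3 lower and 26 neither, and the median log2 fold change was 0.09. Hoxd12, in the 5′ part of its cluster (chromosome 2, 74675013 to 74677705, plus strand), had the largest log2 change of the 34: 3.8, 3.34 and 4.37 CPM in WT against 21.3, 20.4 and 17.7 CPM in T1 kidneys (log2 fold change 2.37, SE 0.11, adjusted p = 1.42e-08). Its T1 libraries were all more than 4 times the highest WT library. Its neighbour Hoxd13 was low in both, at 0.25, 0.293 and 0.0938 CPM and 0.594, 0.544 and 0.58 CPM, and lost its call without WT replicate 3 or T1 replicate 3, while Hoxd11 stood at a log2 fold change of 0.09, SE 0.06.

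In the Hoxa cluster, Hoxa5, Hoxa6 and Hoxa11 were higher. Hoxa5 was at 30.7, 25.9 and 31.1 CPM in WT and 62.2, 67.6 and 61 CPM in T1 kidneys, Hoxa6 at 8.85, 8.95 and 8.92 CPM and 17.1, 21.1 and 16.9 CPM, and Hoxa11 at 34.1, 31 and 33 CPM and 74.8, 67.2 and 64.5 CPM, with log2 fold changes of 1.12, SE 0.07, 1.04, SE 0.10 and 1.07, SE 0.07. The genotypes did not overlap for any of these. Hoxa3 (log2 fold change 0.65) was called, Hoxa4 (0.58) and Hoxa10 (0.54) were not, though Hoxa4 was called without WT replicate 2 or T1 replicate 1 and Hoxa10 without T1 replicate 3, and Hoxa13 was below 1 CPM in every library. Exons of other genes cover 35% of Hoxa11 and 27.1% of Hoxa3, and counting ignored strand, so those values are partly uncertain.

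No gene of the Hoxb cluster was called. Hoxb4 (31.5, 26.4 and 30.2 CPM against 19.9, 23.7 and 19.2 CPM) and Hoxb5 were lower in all 3 T1 libraries, with log2 fold changes of -0.49, SE 0.09 and -0.34, SE 0.07, inside the fold threshold. Hoxd8, Hoxd9 and Hoxd10 had log2 fold changes of -0.40, -0.20 and -0.32. Hoxd3, the single Hox gene called lower (6.36, 4.37 and 6.15 CPM against 2.79, 3.55 and 2.68 CPM, log2 fold change -0.90, SE 0.17, adjusted p = 0.00114), shares 62.8% of its exon length with other genes. Hox genes are made by stroma, nephron progenitors and ureteric tree alike, so these levels are sums over those cells.

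**Figure D3:**
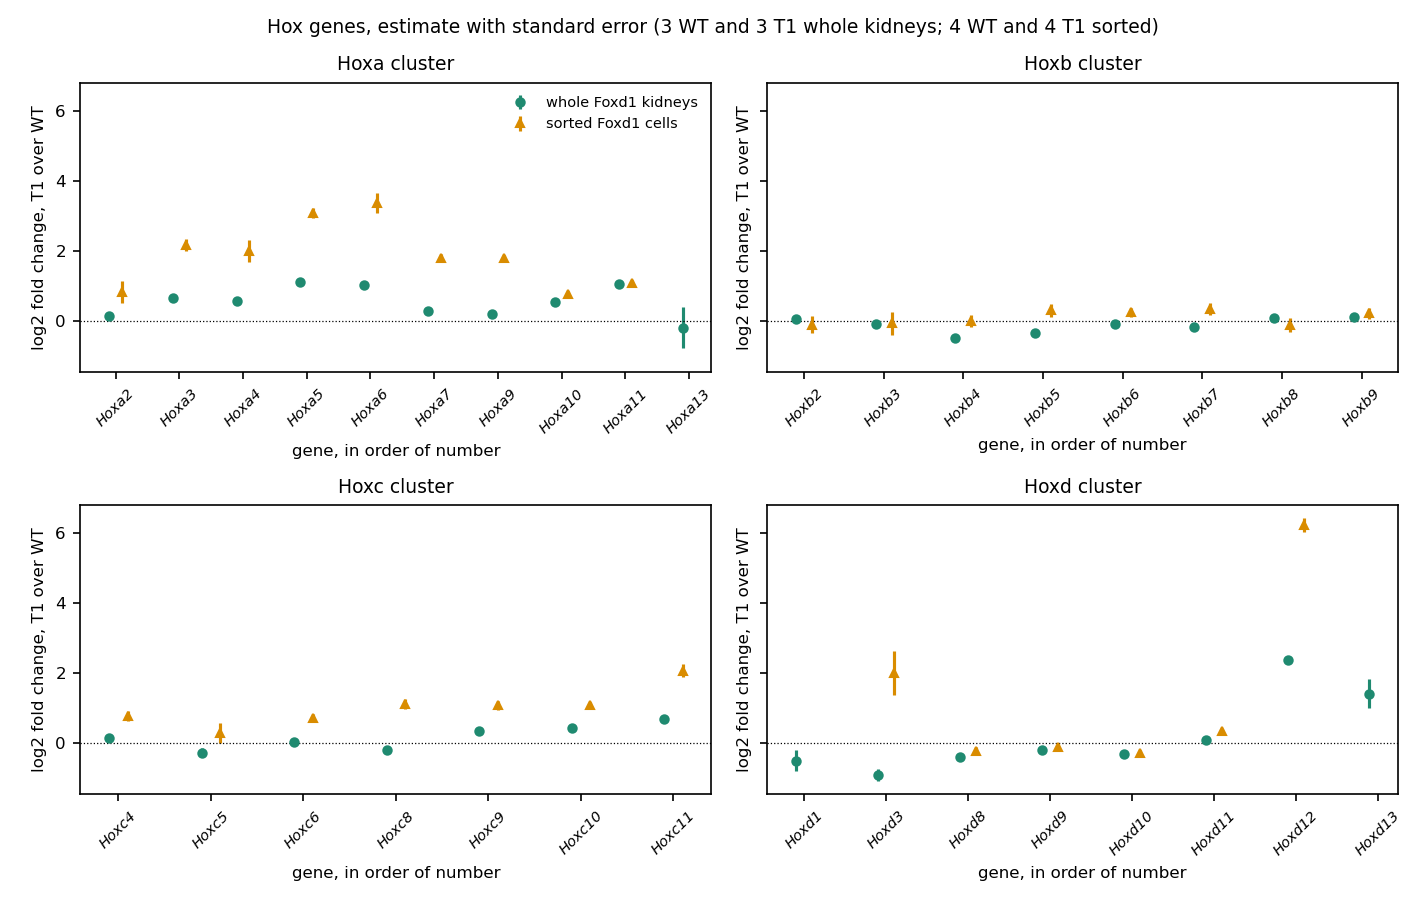
Log2 fold change of T1 over WT for Hox genes, by cluster and in order of number, in whole Foxd1 kidneys (circles, own fit) and in sorted Foxd1 cells (triangles, joint fit), with standard errors. Hoxd12 is the highest point in both, at 2.37 and 6.23, and Hoxa5 and Hoxa6 are the highest of their cluster in sorted cells.

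Of 14 genes of the nephron progenitors, a pool apart from the Foxd1 lineage, 6 were called higher, 0 lower and 8 neither, with a list median of 0.48, and without T1 replicate 1 the 6 became 2. Six2, the factor that keeps these cells undifferentiated, was at 136, 122 and 118 CPM in WT and 241, 194 and 195 CPM in T1 kidneys, so that the lowest T1 library exceeded the highest WT library (log2 fold change 0.75, SE 0.08, adjusted p = 1.65e-05). Its partner Eya1 was at 49.1, 42 and 54.9 CPM and 95.7, 74.7 and 68.2 CPM (log2 fold change 0.71, SE 0.11, adjusted p = 0.000374). Osr1, an early factor of kidney mesenchyme, rose by 0.78, SE 0.10 on the log2 scale, and Crym, Spock2 and Robo2 were also called, with log2 fold changes of 0.60, 0.63 and 0.61. Cited1, which marks the most naive progenitors, went from 44.3, 41.6 and 43.1 CPM to 73.3, 55.7 and 59.7 CPM and stayed inside the fold threshold (log2 fold change 0.55, SE 0.08, adjusted p = 0.000287), and the stromal and progenitor ligand gene Gdnf stood at -0.02, SE 0.07.

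The progenitor count rested in part on 1 library and on the filter, and was 4 with genes over 1 CPM only. Crym also lost its call without WT replicate 1 or with protein-coding genes only, and Robo2 without WT replicate 2. T1 replicate 1 was the highest of the 3 T1 libraries for Six2, Eya1, Cited1, Crym, Osr1 and Spock2. The 6 called genes kept a positive log2 fold change in every setting tried. The summed level of the list was 1252 to 1334 CPM in WT and 1669 to 1927 CPM in T1 libraries.

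Of 16 genes of the pretubular aggregate and renal vesicle, the first epithelial stages, Bmper and Tmem100 were called higher and 0 lower (list median 0.21). Bmper, a BMP-binding protein, went from 26.3, 23.3 and 21.5 CPM to 58.8, 54 and 51.1 CPM (log2 fold change 1.21, SE 0.08, adjusted p = 1.76e-07), and Tmem100 from 16.7, 16.1 and 14.9 CPM to 29.5, 27.5 and 24.4 CPM. Wnt4, which drives the conversion to epithelium, had a log2 fold change of 0.49, SE 0.05, adjusted p = 1.11e-05, under the fold threshold, and Lhx1, Pax8 and Jag1 had values of 0.19, 0.05 and 0.05.

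Many tubule genes were lower, among them those of the proximal tubule, the segment that reabsorbs glucose, phosphate, amino acids and filtered protein. Of 25 tested, 17 were called lower and Pck1 higher, with a list median of -0.92 and log2 fold changes from -3.27 to 0.83. Slc34a1, the phosphate carrier of the brush border, was at 918, 1038 and 914 CPM in WT and 358, 527 and 455 CPM in T1 kidneys (log2 fold change -1.10, SE 0.11, adjusted p = 5.78e-06). The endocytic receptor Lrp2 was at 829.9, 737 and 789.5 CPM and 333, 412 and 465 CPM (log2 fold change -0.96, SE 0.10, adjusted p = 6.57e-06), and its partner Cubn had a log2 fold change of -0.88, SE 0.09. None of these overlapped between genotypes.

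Other enzymes and carriers of the segment fell as well. Kap, a kidney androgen-regulated protein, was at 96.9, 86 and 82 CPM in WT and 11, 11.1 and 5.34 CPM in T1 libraries, 9.65-fold lower (log2 fold change -3.27, SE 0.19, adjusted p = 6.14e-08). Miox, which breaks down inositol, fell by 2.27 on the log2 scale, and the glucose carrier Slc5a2, the organic anion carriers Slc22a6 and Slc22a8, and Fbp1 of gluconeogenesis had log2 fold changes of -1.60, -0.76, -0.93 and -1.14. Pck1, the rate-setting enzyme of gluconeogenesis, was the only member called higher, from 177, 198 and 165 CPM to 244, 365 and 355 CPM (log2 fold change 0.83, SE 0.12, adjusted p = 0.000158). Keg1 and Slc13a1 also had positive log2 fold changes, 0.34, SE 0.07 and 0.32, SE 0.12, and were not called. Hnf4a, a transcription factor of the segment, was not called, with a log2 fold change of -0.26, SE 0.07. Exons of other genes cover 11.7% of the exon length of Slc34a1 and 20.6% of that of Slc5a2, so their counts are partly uncertain.

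Across gene families, 74 of 348 tested genes whose symbols open with Slc, the solute carriers, were called lower and 9 higher (all tested genes: 7.53% lower and 2.65% higher). Of 45 tested Cyp genes, 13 were lower and 0 higher. The medians of the families were -0.21 and -0.31.

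Further along the nephron, 9 of 17 tested genes of the loop of Henle and distal tubule were called lower and 0 higher (list median -0.64). The thiazide-sensitive carrier Slc12a3 was at 173, 135 and 164 CPM in WT and 29.5, 55.9 and 44 CPM in T1 kidneys (log2 fold change -1.86, SE 0.16, adjusted p = 2.37e-06). Uromodulin (Umod), made by the thick ascending limb, was at 61.5, 98.2 and 86.9 CPM and 44.2, 40.9 and 44 CPM, without overlap, and shares 19.5% of its exon length with other genes. The potassium channel gene Kcnj1 and Bsnd, which encodes barttin, had log2 fold changes of -0.89 and -0.99. Pvalb had at most 4 counts in a library and was not tested.

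Podocyte genes were not called in either direction, 0 of 16, and the list median was -0.05. At an adjusted p under 0.05 and any fold, 3 were higher and 3 lower (all 20145 tested genes: 3300 and 3432). Plce1 had the largest positive log2 fold change (0.46, SE 0.06) and Synpo the largest negative one (-0.51, SE 0.08). The slit-diaphragm gene Nphs1 was at 52.6, 52.2 and 53.3 CPM in WT and at 35.3, 48.5 and 51.6 CPM in T1 libraries, and 11.8% of its exon length is shared with other genes. T1 replicate 1 was the lowest library for it, and for Podxl, Clic5, Synpo, Npnt and Thsd7a. The log2 fold changes of the 16 ran from -0.51 to 0.46, all inside the fold threshold, and a missed threshold does not show that the levels were equal. Whether this list differed from the proximal tubule list was not tested.

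Of 20 genes of the ureteric tree and collecting duct, 5 were called lower, 2 higher and 13 neither (list median -0.26). Aqp2, the vasopressin-regulated water channel of principal cells, was at 285, 429 and 332 CPM in WT and 100.2, 85.8 and 90.7 CPM in T1 kidneys (log2 fold change -1.92, SE 0.12, adjusted p = 9.99e-08). Scnn1g, a subunit of the epithelial sodium channel, was at 76.8, 80.2 and 81.1 CPM and 41, 45.4 and 45.6 CPM, and Aqp3, Upk1b and Atp6v0d2 were also called lower. Aqp3 lost its call without WT replicate 2, and Atp6v0d2 without WT replicate 3 or T1 replicate 1. Other genes of the collecting duct, such as Scnn1b (-0.37), Hsd11b2 (-0.25) and Foxi1 (-0.22), were not called. Ret, the GDNF receptor of the tips, was at 42.5, 39.7 and 43.5 CPM against 71.7, 66.5 and 68.5 CPM (log2 fold change 0.72, SE 0.06, adjusted p = 9.24e-07), and Krt19, a keratin of the ureteric epithelium, was also called higher (0.69). Wnt11, also a tip gene, had a log2 fold change of 0.14, SE 0.06, adjusted p = 0.0854.

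**Figure D4:**
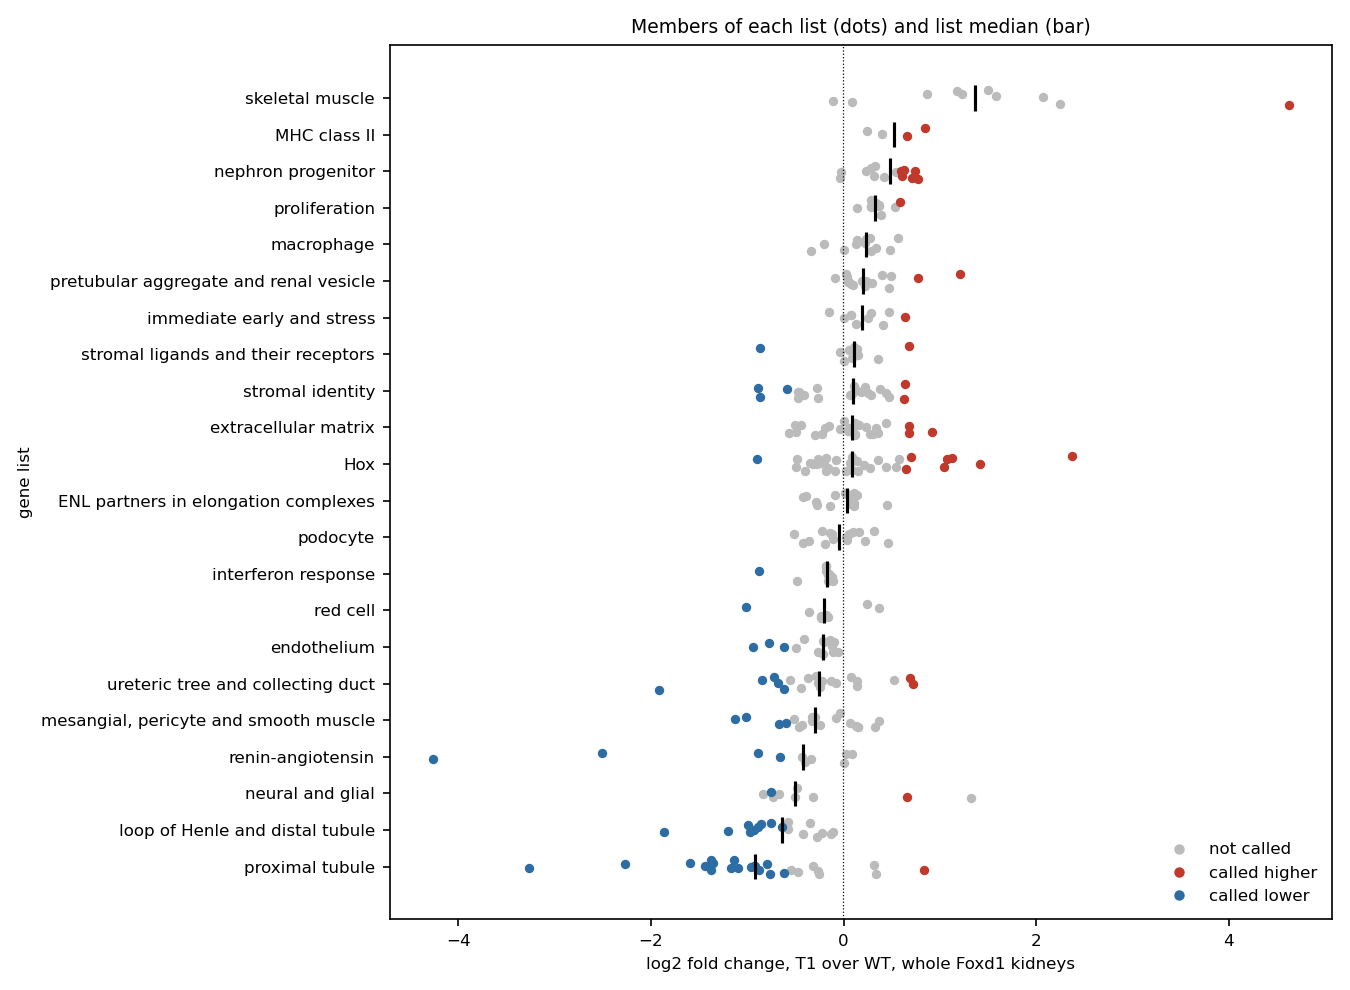
Log2 fold change of T1 over WT for each tested member of the gene lists drawn, with a bar at the list median and a dotted line at the median of all genes. Proximal tubule and loop of Henle lists lie furthest to the left (medians -0.92 and -0.64). Skeletal muscle, class II histocompatibility and nephron progenitor lists lie furthest to the right (medians 1.36, 0.53 and 0.48).

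Of 14 endothelial genes, Plvap of fenestrated capillaries, Ehd3 of the glomerulus and Gja5, a connexin of arterial endothelium that renin cells also make, were called lower and 0 higher. Plvap lost its call without WT replicate 2. All 14 had negative log2 fold changes (list median -0.21). At an adjusted p under 0.05 and any fold, 8 were lower and 0 higher (all 20145 tested genes: 3432 and 3300). Gja5 was at 37.1, 39.5 and 34.4 CPM in WT and 18.6, 19 and 20.3 CPM in T1 kidneys (log2 fold change -0.94, SE 0.07, adjusted p = 4.85e-07), and the pan-endothelial gene Pecam1 stood at -0.10, SE 0.06. Of 12 macrophage genes 0 were called, but 2 were called higher without WT replicate 2 and 1 without T1 replicate 1. Of 4 class II histocompatibility genes Cd74 and H2-Aa were higher, with Cd74 at 6.07, 6.98 and 4.96 CPM and 10.9, 11.6 and 9.82 CPM. H2-Aa lost its call without WT replicate 1 or T1 replicate 1. Of 10 interferon-response genes only Ifit3 was called, lower (-0.87, SE 0.19), while the chemokine Cxcl10 was higher, at 0.658, 0.638 and 1.22 CPM against 3.91, 5.07 and 4.43 CPM (log2 fold change 2.42, SE 0.23, adjusted p = 4.96e-06).

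Dividing-cell genes leaned upward by less than the fold threshold. All 12 had positive log2 fold changes, from 0.14 to 0.59, with a median of 0.32, and 11 had an adjusted p under 0.05. At that adjusted p and any fold, 3300 of all 20145 tested genes were higher and 3432 lower. Top2a was the only one called (0.59, SE 0.06, adjusted p = 1.71e-05), and it was not called when T1 replicate 1, T1 replicate 2, WT replicate 2 or WT replicate 3 was left out, with protein-coding genes only, or with genes over 1 CPM only. Of 10 immediate early and stress genes, Jun alone was called (0.63), and it was not without WT replicate 3. Of 15 genes of the elongation complexes that ENL joins, 0 were called, with Aff1 at -0.42, SE 0.08 and Cdk9 at 0.14, SE 0.05.

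Skeletal muscle and adrenal markers, of tissue next to the kidney, were low and varied by library. The summed level of the skeletal muscle list was 17.7 to 40.5 CPM in WT and 13.1 to 144.8 CPM in T1 libraries, the highest being T1 replicate 1, where Acta1 had 3088 counts against 63 and 77 in the other T1 libraries. Myog was the single member called higher, from 0, 0 and 3 counts to 46, 19 and 12. The adrenal genes Cyp21a1, Cyp11b1 and Hsd3b1 had 58, 23 and 42 counts in WT replicate 1 and at most 8 in any other library, and Mc2r was called lower (-1.08, SE 0.30). Of 9 neural and glial genes Elavl4 was called higher, with overlapping libraries and not without T1 replicate 1, and 1 was called lower. Of 8 red cell genes Slc4a1 was called lower. The red cell list summed to 2489 to 3044 CPM in WT and 2241 to 2486 CPM in T1 libraries. Of 3 fat genes 0 were called. Fabp4, by which the study marked vascular endothelium, had means of 184.4 and 123 CPM without overlap (log2 fold change -0.58, SE 0.06). Without WT replicate 2, T1 replicate 1 or T1 replicate 3, 1 fat gene was called lower, and without T1 replicate 2, 1 was called higher. The part of these tissues in the results was not tested.

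Several of the 15 named genes that rose most were near silent in WT kidneys. Slc17a6, the vesicular glutamate transporter VGLUT2, had 0 counts in every WT library and 100, 79 and 72 counts in the T1 libraries, at least 29.3-fold higher than the floor of 3 counts per library. Cdh9, a cadherin, had 2, 1 and 2 counts in WT and 87, 75 and 88 in T1 libraries (log2 fold change 5.63, SE 0.44, adjusted p = 7.89e-07). The homeobox gene Barx1 had 2, 2 and 11 counts in WT and 75, 72 and 86 in T1 libraries. None of these 3 overlapped between genotypes, but the rule that named them required this, and they reached its mean of 1 CPM in T1 kidneys only. All stayed under 2 CPM, so their fold changes carry a large error.

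Others of the 15 reached higher levels. The zinc-finger homeobox gene Zfhx4 was at 0.684, 0.702 and 0.683 CPM in WT and 5.9, 3.98 and 4.71 CPM in T1 kidneys (log2 fold change 2.81, SE 0.19, adjusted p = 2.34e-07), Hs3st4, a heparan sulfate sulfotransferase, at 0.171, 0.268 and 0.388 CPM and 4.52, 3.79 and 3.63 CPM, and Rxfp2, a relaxin-family peptide receptor, at 0.342, 0.498 and 0.75 CPM and 5.23, 4.05 and 4.39 CPM. The small proline-rich genes Sprr2f and Sprr2g, epithelial envelope proteins encoded on chromosome 3, were at 8.62, 8.93 and 5.02 CPM against 46, 42.7 and 48.4 CPM and at 0.75, 0.587 and 0.415 CPM against 7.09, 7.92 and 7.26 CPM. They belong to a family of near-identical copies, so how their reads were split is uncertain. Fmo6, Fam19a4, Pnoc, Sectm1b and Fam155a were also among the 15, with log2 fold changes of 5.44, 3.52, 3.40, 2.97 and 2.82.

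The 15 named genes that fell most included, besides Ren1 and Kap, the gene of corticosteroid-binding globulin, Serpina6. It was at 147 ± 11.4 CPM (SD, n = 3) in WT and 15.8 ± 2.05 CPM (SD, n = 3) in T1 kidneys (log2 fold change -3.22, SE 0.09, adjusted p = 1.8e-10). Esrrb, an orphan nuclear receptor, was at 13.9, 17.2 and 16.2 CPM and 1.23, 2.15 and 1.84 CPM (log2 fold change -3.17, SE 0.16, adjusted p = 2.44e-08), and Esr2, oestrogen receptor beta, at 1.74, 1.75 and 1.79 CPM and 0.149, 0.173 and 0.373 CPM. The lectin-like gene Clec2h had 258, 263 and 241 counts in WT and 4, 3 and 2 in T1 libraries. The glycosyltransferase pair Ugt3a1 and Ugt3a2, which are close paralogs, had log2 fold changes of -3.13 and -3.66.

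The same 15 included Nccrp1, Tldc2, Vip (vasoactive intestinal peptide), F13b, the matrix protein gene Tnn and the homeobox gene Hmx2, with log2 fold changes of -5.80, -4.46, -2.94, -2.84, -2.76 and -2.75. Capn11, a calpain, was uneven among the controls, at 0.184, 4.84 and 5.22 CPM in WT against 0.0891, 0.0266 and 0.0691 CPM in T1 kidneys, and its fold change of -5.78, SE 0.98 on the log2 scale rests on WT replicates 2 and 3. The nuclear long noncoding RNAs Neat1, Meg3 and Kcnq1ot1, picked after their values were seen, were all lower (-1.34, SE 0.15, -1.28, SE 0.12 and -1.10, SE 0.16), as was Xist (-0.87, SE 0.08).

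The same allele was read in whole E18.5 kidneys of Six2-TGCtg/+;EnlT1/+ and Six2-TGCtg/+;Enl+/+ embryos, where Cre acts in the nephron progenitors, with 2 libraries each. These share no samples with the Foxd1 kidneys, and the difference between the T1 effects was tested as an interaction. It passed for 1910 of 22826 genes (8.37%), with a more positive effect in Foxd1 kidneys for 1100 and a more negative one for 810. Lineage cannot be told apart from the sequencing of the tables or from sex: Xist and Y-linked counts showed 1 WT library of the Six2 kidneys with Xist and no Y-linked counts, like the Foxd1 libraries, and the other 3 with Y-linked counts.

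The T1 effect on part of the nephron genes differed between the lineages. Nephron progenitor genes had a median log2 fold change of 0.49 in Foxd1 and -0.56 in Six2 kidneys, and the difference passed for 9 of 14, all more positive in Foxd1 kidneys. For Six2 it was 1.93, SE 0.15, adjusted p = 5.98e-06, from an effect of 0.75 against -1.18. For Cited1 it was 2.10, SE 0.15, adjusted p = 4.33e-06, and for Osr1 1.54, SE 0.17, adjusted p = 9.57e-05. Podocyte genes had medians of -0.04 and -0.93, with 10 of 16 differences passing, all more positive in Foxd1 kidneys. Nphs1 had effects of -0.22 and -2.67 (difference 2.45, SE 0.20, adjusted p = 1.16e-05). Proximal tubule genes had negative medians in both, -0.92 and -2.33, and 21 of 25 differed, all with the more positive effect in Foxd1 kidneys.

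**Figure D5:**
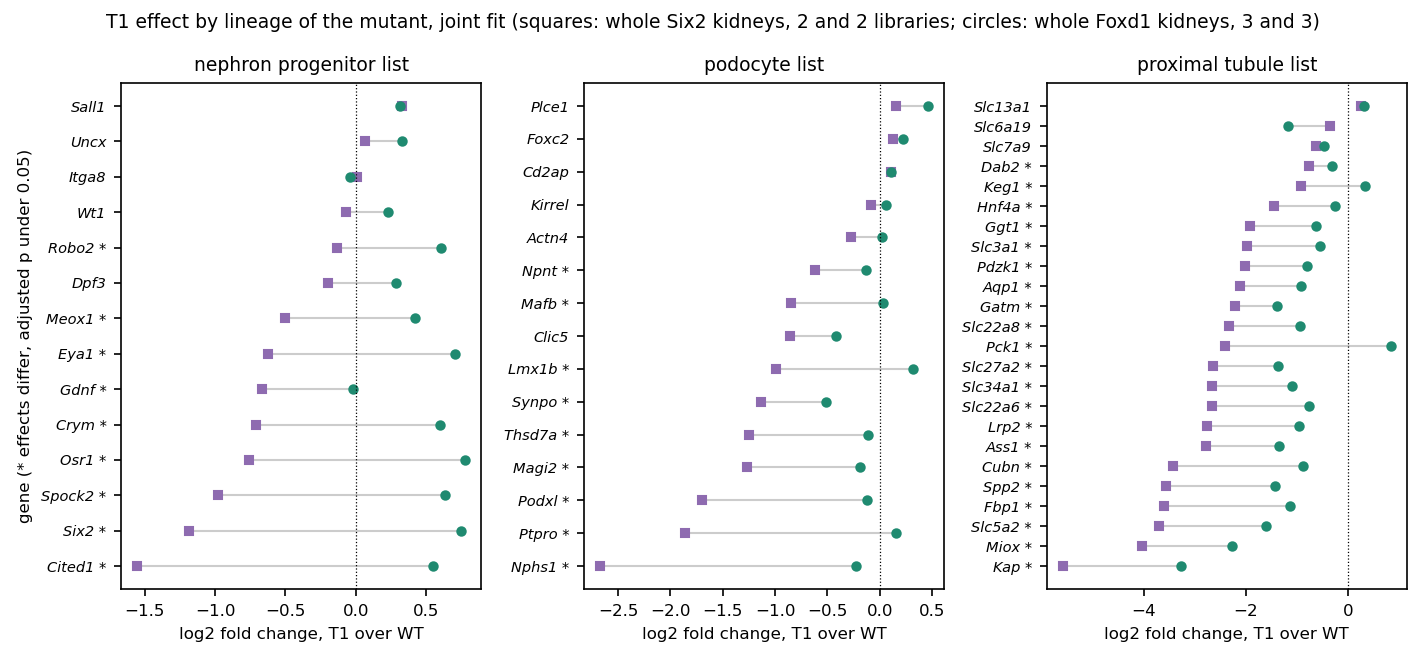
Log2 fold change of T1 over WT for members of the progenitor, podocyte and proximal tubule lists in whole Foxd1 kidneys (circles) and whole Six2 kidneys (squares), from the joint fit, with an asterisk where the 2 effects differ. Six2 lies at 0.75 and -1.18, on opposite sides of 0, and Nphs1 at -0.22 and -2.67.

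In distal segments, 3 of 17 loop and distal tubule genes and 3 of 20 ureteric and collecting duct genes were more positive in Foxd1 kidneys, and 1 of each more negative. Aqp2 had effects of -1.92 and -1.86 (difference -0.06, SE 0.24, adjusted p = 0.919), whereas Ret went from 0.72 in Foxd1 to -0.33 in Six2 kidneys (difference 1.05, SE 0.12, adjusted p = 0.000121). Hox genes had a higher median in Six2 kidneys (0.70 against 0.09), and the difference passed as more negative in Foxd1 kidneys for 22 of 34 and more positive for 1. Hoxa13, below 1 CPM in every Foxd1 library, stood apart with -0.19 and 5.68 (difference -5.86, SE 0.55, adjusted p = 2.76e-05).

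The renin change was larger in Foxd1 kidneys, with effects of -4.27 and -1.22 for Ren1 (difference -3.05, SE 0.27, adjusted p = 1.5e-05) and a difference of -1.64, SE 0.19, adjusted p = 0.000147 for Akr1b7. The largest positive differences among genes at 1 CPM or more were those of Slc17a6 (12.62), Xist (10.09), Barx1 (6.21), Fam19a4 (6.09) and Pnoc (4.69). The largest negative ones were those of Capn11 (-8.50), Esr2 (-3.40), Ren1, Cnmd (-3.03) and Cnr1 (-3.00). Xist tracks the sex of the libraries, and Slc17a6 and Barx1 were near 0 in the Six2 kidneys, so their sizes depend on the prior count. Of the genes called higher in Foxd1 kidneys, 147 were also called higher in a separate fit of the Six2 kidneys, 27.5% of the Foxd1 list and 22.5% of the Six2 list, and of those called lower 497 were shared, 32.8% and 46.1%. Of all 23551 genes tested in the Six2 fit, 654 were called higher (2.78%) and 1078 lower (4.58%). The opposite call was made in Six2 kidneys for 20 of the genes called higher and 17 of those called lower.

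The cells that carry the mutant were read apart from the organ as sorted tdT-positive cells of Foxd1GC/+;EnlT1/+ and Foxd1GC/+;Enl+/+ kidneys, 4 libraries each, prepared with a low-input kit. Both genotypes of these kidneys also carried tdT, a fluorescent reporter that Cre switches on, and the cells were dissociated before sorting. The sorted libraries held 2557443 to 3508381 counts each, and all 8 had Y-linked counts and at most 1 count of Xist. Preparation therefore cannot be told apart from sex, kit or reporter. The T1 effect differed between whole kidneys and sorted cells for 2252 of 14723 genes (15.3%), 927 more positive and 1325 more negative in whole kidneys. Of the 534 genes called higher in whole kidneys, 216 could be tested in sorted cells by themselves, 114 of these were called higher there and 1 lower. Of the 1517 called lower, 421 could be tested, 101 were called lower and 8 higher. Of all 12717 genes tested in the sorted cells, 462 were called higher (3.63%) and 277 lower (2.18%). The shared genes made up 21.3% and 6.66% of the whole-kidney lists and 24.7% and 36.5% of the sorted-cell lists.

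Several of the whole-kidney changes had estimates of like size in the sorted cells. Ren1 stood at 295 CPM in WT and 21 CPM in T1 sorted cells, and its effects were -4.31 in whole kidneys and -3.84 in sorted cells (difference -0.47, SE 0.45, adjusted p = 0.523). Fn1 had effects of 0.64 and 0.74 (difference -0.10, SE 0.11, adjusted p = 0.569). Zfhx4, Rxfp2 and Hs3st4 also had large estimates in sorted cells, 3.20, 3.00 and 4.17. A missed threshold does not show equal effects, and the standard errors of these differences give the precision of the comparison.

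The T1 effect on part of the Hox and stromal identity genes differed between whole kidneys and sorted cells. Hoxd12 was at 2.07 CPM in WT and 163 CPM in T1 sorted cells, an effect of 6.23 against 2.33 in whole kidneys (difference -3.90, SE 0.27, adjusted p = 8.23e-09). In all, 17 of 31 Hox genes had a smaller or more negative effect in whole kidneys and 0 a more positive one, and the medians were 0.05 and 0.78. Hoxa9 and Hoxa7, not called in whole kidneys, had effects of 1.80 and 1.80 in sorted cells. Stromal identity genes had medians of 0.06 and -0.30, and the effect was more positive in whole kidneys for 10 of 22. Tcf21, for example, had -0.45 in whole kidneys and -0.99 in sorted cells (difference 0.54, SE 0.09, adjusted p = 0.000359).

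Progenitor genes differed for 5 of 14, all more positive in whole kidneys, Six2 among them (0.71 against 0.03, difference 0.68, SE 0.23, adjusted p = 0.0487). Proximal tubule genes differed for 1 of 25. Epithelial transcripts were present in the sort, with Slc34a1 at 56.8 CPM and Six2 at 17.7 CPM in WT sorted cells, and their part in these effects was not tested. The largest positive differences among genes at 1 CPM or more were those of Sprr2g, Ifit3b, Sprr2f, Cxcr4 and Aldh1a1, from 3.06 to 2.14 on the log2 scale. The largest negative ones were those of Nccrp1, Hoxd12, Lrrc4c, Gramd2 and the predicted gene Gm43305, from -6.87 to -3.13.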

How the data were processed

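Gene counts were deposited by the authors: reads of stranded poly(A) libraries from whole kidneys, or of low-input libraries from sorted cells, were aligned to mm10 with HISAT2 and assigned to genes by HTSeq, ignoring strand, so overlapping and antisense genes share reads. These counts were taken as deposited and named by GENCODE vM21. After filterByExpr had removed genes of low count (thresholds of 10 per library and 15 in total) and TMM factors had been computed, T1 was compared with WT by edgeR's quasi-likelihood test (edgeR 4.0.16) with Benjamini-Hochberg adjustment over all tested genes. A call needs an adjusted p under 0.05 and a fold over 1.5. Differences between experiments were interaction terms at an adjusted p under 0.05.

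Named genes were the members of fixed lists, the 15 largest log2 fold changes each way among called genes with an official name, a mean of 1 CPM or more in a genotype and no overlap of libraries, and the 5 largest called differences each way at 1 CPM or more. The members and lists were chosen with earlier results of these data known. Tested on simulated data, 81% of 2-fold and 93.8% of 4-fold changes were recovered in this comparison. Of the 19793 genes fitted there, 100 were changed 2-fold and 97 4-fold. They were drawn in equal numbers up and down, unlike the calls in these data. For the difference from Six2 kidneys 55.6% and 75% were recovered, and for that from sorted cells 79.6% and 100%. Each gene was simulated at the same mean level in both experiments, whereas real levels differed, so these rates may not hold for the data. Depth was 67137194 to 79343015 counts per library. Replicate numbers were not treated as pairs, and the labels do not say what they mark. Alternatives covered other tests, scalings, filters, fold thresholds and left-out libraries. Some genes of the lists are counted but their values are not reported here.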

Additional observations from a re-analysis of the deposited data

Results flagged for a closer look

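The results below were picked out because the T1 effect in whole Foxd1 kidneys differed from that in another experiment by the interaction test, at an adjusted p under 0.05. Groups of 3 libraries are too small for a search for single outlying libraries.

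Against whole Six2 kidneys, the log2 effect was more positive in whole Foxd1 kidneys by 12.62 for Slc17a6, 10.09 for Xist, 6.21 for Barx1, 6.09 for Fam19a4 and 4.69 for Pnoc. Among genes of the nephron it was more positive by 1.93 for Six2, 2.10 for Cited1 and 1.54 for Osr1. The difference was -8.50 for Capn11, -3.40 for Esr2, -3.05 for Ren1, -3.03 for Cnmd, -3.00 for Cnr1 and -5.86 for Hoxa13, each more negative in Foxd1 kidneys. For Capn11, WT replicate 1 of the Foxd1 kidneys was at 0.184 CPM while the other WT libraries were at 4.84 and 5.22 CPM.

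Against sorted Foxd1 cells, the effect was more positive in whole kidneys by 3.06 for Sprr2g, 2.69 for Ifit3b, 2.23 for Sprr2f, 2.14 for Cxcr4 and 2.14 for Aldh1a1. It was -6.87 for Nccrp1, -3.90 for Hoxd12, -3.90 for Lrrc4c, -3.20 for Gramd2 and -3.13 for Gm43305. Nccrp1 and Gramd2 were under 1 CPM in the sorted cells of both genotypes.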

How the results depend on the processing

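The counts of 534 genes higher and 1517 lower stayed within 1.5 times under the edgeR exact test, DESeq2 (533 and 1491), other scalings, no filter, and a joint fit with the Six2 kidneys. Leaving out 1 library gave 435 to 556 higher and 1202 to 1604 lower. With genes over 1 CPM only, 347 were higher, and with protein-coding genes of the nuclear genome only, an alternative chosen after seeing the data, 983 were lower. Without a fold threshold 3300 were higher and 3432 lower, and at a fold over 2 these were 243 and 841. The cause of these shifts, other than the change of threshold or of the genes tested, was not tested. The difference from Six2 kidneys passed for 2883 genes with DESeq2 and 3130 without a filter. No pairing by replicate number was seen, though so few libraries cannot exclude it. Deviations of same-numbered libraries correlated at -0.0708, -0.0791 and -0.00452, and the fit with a replicate block called 514 higher and 1469 lower. A sex covariate was not run, since all 6 libraries had Xist and no Y-linked counts. Of 134 named genes, 114 kept their side of the threshold in every setting that tested them and 20 did not. Of those called in the main fit, 0 reversed sign. List counts under each alternative were added after seeing the data.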
